A study of Mus musculus with 16 samples.

Results

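The 23b/27b/24-1 and 23a/27a/24-2 clusters each encode a miR-23, a miR-27 and a miR-24 hairpin, and 7 of the 650 mouse miRNA names on the array belong to them: mmu-miR-23a, mmu-miR-23b, mmu-miR-27a, mmu-miR-27b, mmu-miR-24, mmu-miR-24-1* and mmu-miR-24-2*, written without the species prefix from here on. Members were taken by name alone, with all their probes, which gave 14 probes printed on 140 spots. miR-23b, miR-27b and miR-24-1* come from the first cluster and miR-23a, miR-27a and miR-24-2* from the second, while mature miR-24 is made by both. In p4 nerves without Dicer in Schwann cells, miR-23b, miR-27b and miR-24 were lower than in controls, and no call was made for miR-23a or miR-27a. With the brighter probes, the ratio of each b member to its a paralog on the same array did not overlap between mutants and controls at either age. With the dimmer probes the p4 ratios did not overlap either, but at E17 those of miR-27 did. No comparison of the ratios with the dimmer probes passed the test after adjustment.

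Sciatic nerves were profiled on 16 Agilent miRNA arrays, 4 per group, each from a separate animal. Mutants were Dicer fl/fl Dhh-Cre+ and controls were Dicer wt/fl Dhh-Cre+, at embryonic day 17 (E17, before myelination) or postnatal day 4 (p4, once myelination has started in controls). The floxed allele was Dicer1tm1Bdh/J, every animal carried the Dhh-Cre transgene and at least 1 floxed allele, and both sexes were present in each group. The desert hedgehog promoter drives Cre in Schwann cells, and the study expects loss of Dicer in these cells alone. Dicer in the fibroblasts, endothelial cells, blood cells and axons of these whole nerves was not measured here. The controls keep 1 wild-type allele. Mutants and controls of an age were littermate pairs per the study's methods, but no label gives the litter of an array, so the pairs could not be used. Fewer cells of a type and less RNA per cell cannot be told apart in such tissue.

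A miRNA hairpin is cut by Dicer into a short duplex, of which the guide strand is loaded into Argonaute and the other strand, marked with an asterisk in the older names used by the array, is mostly degraded. The guide pairs with target mRNAs mainly through its seed, the bases near its 5′ end. The miR-23/27/24 clusters are known for roles in blood vessel growth, blood cell development and fat cell differentiation, and miR-23b, miR-27b and miR-24 have also been followed in differentiating oligodendrocytes, the myelinating cells of the brain.

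In the mouse genome (GRCm38.p6, RefSeq) the 23b/27b/24-1 hairpins lie within 792 bases of the plus strand, at chr13:63300484-63301275, inside the span of Aopep, a protein-coding gene for an aminopeptidase. The 23a/27a/24-2 hairpins lie within 404 bases at chr8:84208518-84208921, also on the plus strand, where no annotated gene spans all of them. The build used for the array design was not given in the sources used here. The mature sequences below, from RefSeq, were matched from the older names by hairpin arm and are shown because the paralogs compared here differ by few bases. Capitals mark the seed, bases 2 to 8. The sequence of miR-23b is not shown.
miR-23a: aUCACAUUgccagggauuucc
miR-27a: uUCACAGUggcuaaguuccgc
miR-27b: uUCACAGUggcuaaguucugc
miR-24: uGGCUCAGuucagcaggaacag
miR-24-1*: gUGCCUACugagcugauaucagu
miR-24-2*: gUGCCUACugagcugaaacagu
miR-27a and miR-27b share their seed and their first 18 bases and differ by 1 substitution, C19U, counted from 1 at the 5′ end with the base of miR-27a first. miR-24 has the same sequence at both loci. miR-24-1* and miR-24-2* are the same over their first 16 bases. How far probes for near-identical paralogs share signal was not tested.

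All 5 guide strands were detected on all 16 arrays. Each has 2 probes, and values below are from the brighter of them unless stated, as log2 median spot signals in scanner units after quantile normalization. miR-24-1* was detected on the 4 p4 control arrays and on no other array, and miR-24-2* on none. So 6 names and 12 probes entered the tests. The other arms of miR-27a and miR-27b, with 4 probes each, were also detected on 0 arrays. The summed background-subtracted miRNA signal in p4 mutants was 51.3% of that in p4 controls (exact two-sided permutation test, 4 against 4 arrays, p = 0.0286, the smallest p possible) and at E17 88.7% (p = 0.40). Differences on the normalized scale are therefore set against the bulk of the miRNAs.

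miR-27b, a guide of the 23b cluster, had log2 signals of 9.34, 9.26, 9.06 and 9.35 in p4 controls and of 7.95, 7.92, 7.51 and 7.83 in p4 mutants. In E17 controls the log2 signals were 8.70, 8.39, 8.20 and 8.36, and in E17 mutants 7.88, 7.95, 7.85 and 7.94. Every control array was above every mutant array of its age, and the p4 controls were above all other arrays. In order of their means the groups ran from p4 controls through E17 controls to E17 mutants and p4 mutants, and only the last of these neighbouring pairs overlapped, with a log2 difference of 0.10. The dimmer probe of miR-27b was not well above background on 3 of the 4 E17 mutant arrays and on p4 mutant replicate 3.

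miR-23b, from the first hairpin of the same cluster, had log2 signals of 10.59, 10.36, 10.21 and 10.45 in p4 controls and of 9.86, 9.48, 9.04 and 9.51 in p4 mutants. In E17 controls they were 10.22, 9.93, 9.86 and 9.83, and in E17 mutants 9.66, 9.74, 9.75 and 9.58. The p4 controls and p4 mutants did not overlap, nor did the E17 controls and E17 mutants, although the E17 gap was narrow. p4 and E17 controls overlapped through a single array, E17 control replicate 1, and E17 and p4 mutants overlapped as well.

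miR-24, the guide made by both clusters, had log2 signals of 10.53, 10.47, 10.23 and 10.41 in p4 controls and of 9.98, 9.78, 9.36 and 9.76 in p4 mutants. In E17 controls they were 10.10, 10.04, 10.02 and 9.95, and in E17 mutants 9.57, 9.64, 9.75 and 9.68. Mutants were below controls on every array at both ages, p4 controls were above E17 controls, and the mutants of the 2 ages overlapped.

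miR-23a, the paralog of miR-23b in the other cluster, had log2 signals of 10.10, 10.07, 9.75 and 10.10 in p4 controls and of 10.60, 10.25, 9.68 and 9.98 in p4 mutants. In E17 controls they were 9.97, 9.77, 9.77 and 9.90, and in E17 mutants 9.76, 9.92, 10.07 and 9.85. All groups overlapped with their neighbours, and the p4 mutants spanned the whole range of the p4 controls. The 4 group means, from 9.85 to 10.12, differed by less than the SD of the p4 mutants, 0.39.

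miR-27a, the paralog of miR-27b, had log2 signals of 9.66, 9.55, 9.30 and 9.69 in p4 controls and of 9.63, 9.56, 8.96 and 9.20 in p4 mutants. In E17 controls they were 9.28, 9.31, 9.15 and 9.34, and in E17 mutants 9.02, 9.12, 9.14 and 9.21. Mutant means were lower at both ages, but with this brighter probe mutant and control arrays overlapped at both. On p4 mutant replicate 3 each of the 5 guides had its lowest signal of the p4 arrays.

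miR-24-1*, the other strand of the 24-1 hairpin, had log2 signals of 6.51, 6.30, 6.48 and 6.54 in p4 controls and was not well above background in any other group, where no signal exceeded 6.09. Against p4 mutants the p4 controls were at least 1.13-fold higher and against E17 controls at least 1.11-fold higher, the dim group being set at the higher of its own signal and the lowest signal well above background on each array. It passed the detection filter through the p4 controls alone, so this pattern is a description without a test. The background-subtracted signal of the miRNA was 28.7 to 36.0 on the p4 control arrays and 1.81 to 7.24 on the other arrays. The second probe of miR-24-1* never stood well above background.

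**Figure D1:**
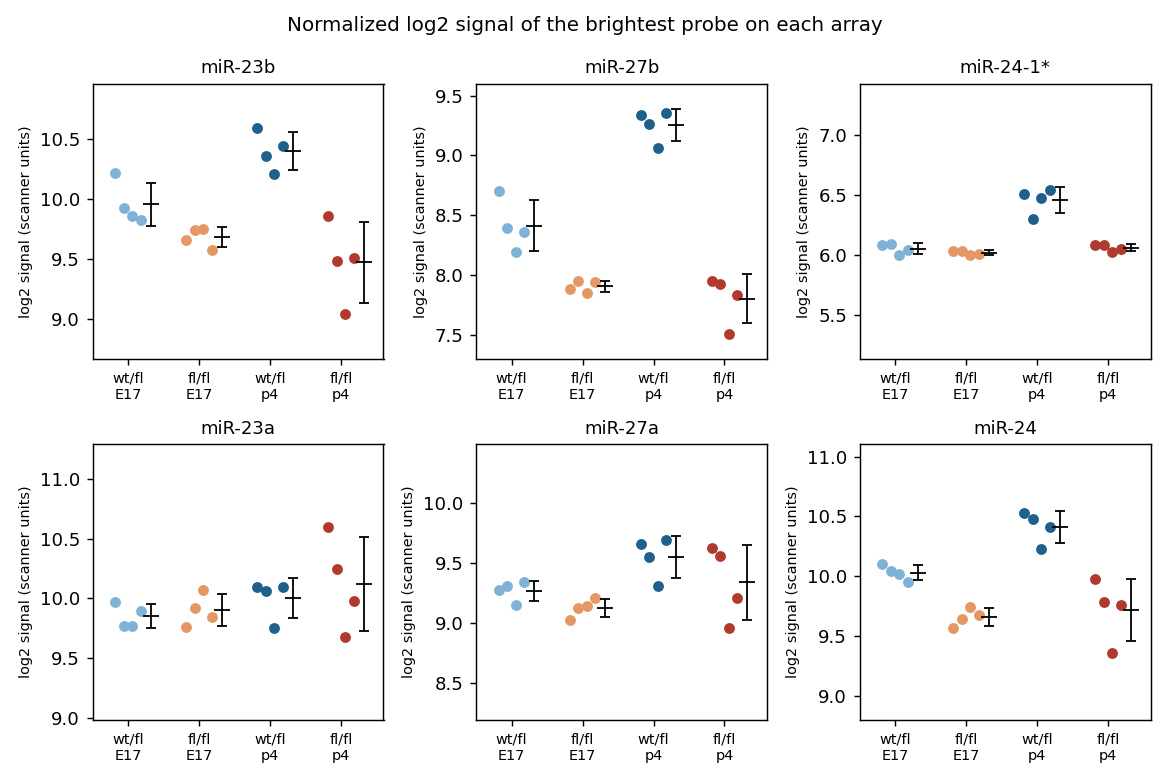
Normalized log2 signal (scanner units) of the brightest probe of 6 miRNAs on each of the 16 arrays, by genotype and age. Points are arrays, horizontal bars with whiskers are means ± SD (n = 4), and all panels span the same log2 range. p4 controls stand above p4 mutants for miR-23b, miR-27b, miR-24 and miR-24-1*, while miR-23a and miR-27a overlap.

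To ask what loss of Dicer in Schwann cells did to the clusters once controls myelinate, p4 mutants were compared with p4 controls. miR-27b fell by 1.45 on the log2 scale (95% confidence interval -1.68 to -1.21, limma adjusted p = 1.12e-07), miR-23b by 0.93 (-1.23 to -0.63, adjusted p = 9.97e-05) and miR-24 by 0.69 (-0.91 to -0.47, adjusted p = 9.02e-05). Their dimmer probes gave -0.91, -0.93 and -0.62. Thus 3 of the 5 guides, all detected on every array, were called lower (a log2 difference of 0.5 or more in size with an adjusted p no higher than 0.05) and 0 higher, where 10.7% of all 281 expressed miRNAs were called lower and 10.3% higher. The median log2 difference over the 5 guides was -0.69, and over all expressed miRNAs 0.06. The same 3 guides had no overlap between mutant and control arrays, against 24.2% of all expressed miRNAs in that direction.

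The 23a cluster gave no call at p4. miR-23a had a log2 difference of 0.12 (95% confidence interval -0.20 to 0.45, limma adjusted p = 0.544), which was -0.93 when the arrays were not normalized to each other and -0.05 when they were scaled to their 75th percentile, and its dimmer probe had -0.17. miR-27a had -0.21 (-0.48 to 0.06, adjusted p = 0.189), and its dimmer probe -0.35 with an adjusted p of 0.0037, under the limit of 0.5. Without normalization both miR-23a (-0.93, limma adjusted p = 1.71e-05) and miR-27a (-1.21, adjusted p = 3.51e-08) were called lower. There miR-24, miR-23b and miR-27b were at -1.70, -1.97 and -2.38, and 31.7% of expressed miRNAs were called lower.

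At E17, before structural differences between the genotypes, miR-27b was lower by 0.51 on the log2 scale in mutants (95% confidence interval -0.74 to -0.27, limma adjusted p = 0.0124), the only call among the 5 guides, where 2.49% of expressed miRNAs were called lower and 3.56% higher. This value lies at the limit of 0.5, and leaving out any of 5 single arrays, E17 control replicate 1, E17 mutant replicate 3, p4 control replicates 2 and 3 or p4 mutant replicate 2, put it below the limit, with values down to -0.41. The call of this probe was also lost without normalization (-0.50, adjusted p = 0.143), with scaling to the 75th percentile (-0.37), with normexp background correction (-0.39), with processed signals (-0.63, adjusted p = 0.0811) and with the methods' t-test after Benjamini-Hochberg (adjusted p = 0.0544). miR-24 had -0.37 (adjusted p = 0.0359), under the limit. miR-23b had -0.28 (adjusted p = 0.221), miR-27a -0.15 (adjusted p = 0.502) and miR-23a 0.05 (adjusted p = 0.864). The dimmer probe of miR-27a had -0.20 (limma adjusted p = 0.136). With the brighter probes the genotypes did not overlap for miR-27b, miR-24 and miR-23b, against 13.9% of expressed miRNAs lower without overlap. With the dimmer probes miR-23b overlapped, while miR-27b (mostly not well above background in E17 mutants), miR-24 and miR-27a were lower without overlap. The share of all dimmer probes without overlap is not given here. On the background-subtracted signal all 5 guides overlapped between the genotypes at E17. The median log2 difference was -0.28 over the 5 guides and -0.0043 over all expressed miRNAs.

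The effects at the 2 ages were then compared in the same model. The mutant effect on miR-27b was more negative at p4 than at E17 by 0.94 on the log2 scale (adjusted p = 0.000752) with the brighter probe. The dimmer probe gave -0.59, but it was not well above background on 3 of the 4 E17 mutant arrays, so its E17 effect is not a full measure. For miR-23b the differences of the effects were -0.65 (adjusted p = 0.0400) and -0.68 (adjusted p = 0.0242) with its 2 probes. These were 2 of the 5 guides, where 6.76% of expressed miRNAs were called in that direction and 2.85% in the other. The call of the brighter probe of miR-23b was lost in 12 of 16 fits without 1 array, for which the adjusted p ranged from 0.0077 to 0.0883. miR-24 had -0.32 (adjusted p = 0.168), and no difference was called for miR-23a (0.07) or miR-27a (-0.07).

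To follow the clusters over the onset of myelination, p4 was compared with E17 within each genotype. In controls miR-27b rose by 0.84 on the log2 scale (95% confidence interval 0.61 to 1.07, limma adjusted p = 3.20e-05). miR-23b and miR-24 met the limit with their dimmer probes only, at 0.72 (adjusted p = 0.000665) and 0.53 (adjusted p = 0.00247), while the brighter ones had 0.44 and 0.38. These 3 of the 5 guides compare with 8.19% of expressed miRNAs called higher and 12.1% lower. The brighter probes of miR-23b and miR-24 reached 0.55 and 0.54 with the authors' deposited intensities. With normexp background correction they had 0.46 and 0.40, under the limit. Arrays of p4 controls lay above those of E17 controls without overlap for miR-27b and miR-24, and below for no guide, against 23.5% and 19.9% of expressed miRNAs. Without E17 control replicate 3, or without p4 control replicate 1, 2 members were called. Without normalization all 5 guides were called higher, from 1.76 (miR-27a) to 2.20 (miR-27b), where 57.3% of expressed miRNAs were. miR-23a had 0.15 (adjusted p = 0.465) and 0.50 (adjusted p = 0.000975), just under the limit, with its brighter and dimmer probe, and miR-27a had 0.28 and 0.43.

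In mutants no guide was called between the ages by limma, with log2 differences from -0.21 (miR-23b) to 0.29 (the dimmer probe of miR-23a), where 3.2% of expressed miRNAs were called higher and 7.47% lower. At an unadjusted p under 0.05, 3 of the 10 guide probes were higher at p4, the dimmer ones of miR-23a, miR-27a and miR-24. Those of miR-23a (0.29, limma adjusted p = 0.0341) and miR-27a (0.29, adjusted p = 0.0222) also passed after adjustment, but lay under the limit of 0.5. That of miR-24 did not pass (0.26, adjusted p = 0.123). With these probes p4 and E17 mutant arrays did not overlap for miR-27a, but did for miR-23a and miR-24. The share of all probes with such p values is not given here. The p4 comparison of genotypes and the age comparison in controls share the p4 control arrays, so their opposite signs are not independent. All E17 arrays were on 1 slide and all p4 arrays on another, so age and slide cannot be told apart, whereas each slide held both genotypes.

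**Figure D2:**
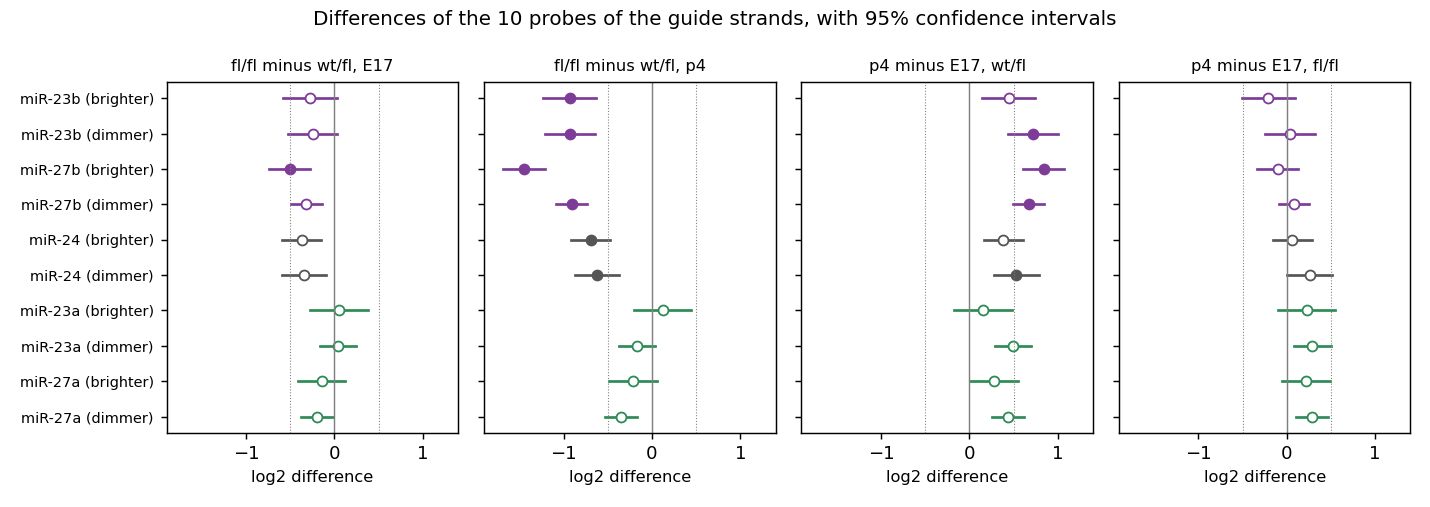
Log2 differences of the 10 probes of the 5 guide strands in the 4 comparisons, with 95% confidence intervals from limma (16 arrays). Filled points met the call rule, open points did not, dotted lines mark 0.5 and -0.5, and colours mark the 23b cluster (purple), the shared miR-24 (grey) and the 23a cluster (green). Between mutants and controls at p4 the calls lie in the purple and grey rows, with miR-27b at -1.45. The dimmer probe of miR-27b was not well above background on 3 E17 mutant arrays.

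The clusters were compared directly through the ratio of paralogs on the same array, in which array-wide shifts largely cancel. Since levels of different probes cannot be compared, log2 ratios are given relative to their mean in E17 controls. For miR-27b over miR-27a these were 0.54, 0.57, 0.61 and 0.52 in p4 controls and -0.82, -0.78, -0.59 and -0.51 in p4 mutants. In E17 controls they were 0.28, -0.06, -0.10 and -0.12, and in E17 mutants -0.28, -0.31, -0.43 and -0.41. The 4 groups thus stood in the order p4 controls, E17 controls, E17 mutants and p4 mutants with no overlap.

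For miR-23b over miR-23a the relative log2 ratios were 0.38, 0.19, 0.35 and 0.24 in p4 controls and -0.85, -0.87, -0.75 and -0.58 in p4 mutants. They were 0.14, 0.05, -0.02 and -0.18 in E17 controls and -0.21, -0.29, -0.43 and -0.38 in E17 mutants. The order of the groups was the one seen for miR-27, again without overlap.

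At p4 the ratio of miR-27b to miR-27a was 2.35-fold lower in mutants than in controls (log2 difference -1.24) and that of miR-23b to miR-23a 2.07-fold lower (-1.05). At E17 the ratios were lower in mutants by a log2 difference of -0.36 for miR-27 and -0.33 for miR-23. With age they moved in opposite directions in the genotypes, by 0.56 and 0.29 in controls and by -0.32 and -0.43 in mutants. Each of these 8 comparisons had p = 0.0286 in an exact two-sided permutation test of 4 against 4 arrays, the smallest p possible, and an adjusted p of 0.0286 over the 8. Within-group SDs of the ratios ranged from 0.04 to 0.19. With the dimmer probe of each miRNA all 8 differences kept their sign. At p4 mutants and controls did not overlap, with -0.76 for miR-23 and -0.56 for miR-27 (exact two-sided permutation p = 0.0286 each). The E17 value for miR-27 was -0.12 with overlapping arrays, and no comparison passed after adjustment (adjusted p from 0.0571 to 0.143). The corresponding ratio of miR-24-1* to miR-24-2* could not be tested, as miR-24-2* was not detected.

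**Figure D3:**
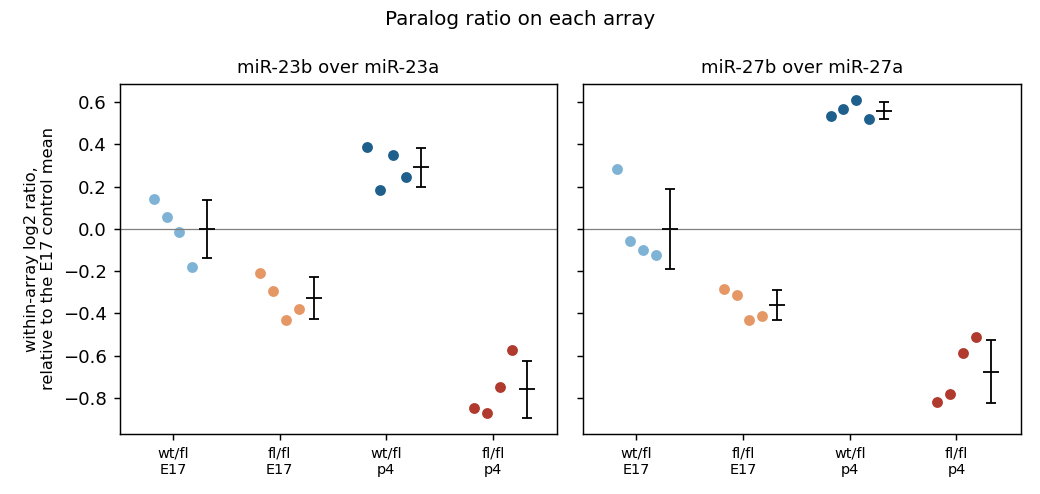
Within-array log2 ratio of miR-23b to miR-23a (left) and of miR-27b to miR-27a (right), relative to the mean of the E17 controls, by genotype and age. Points are arrays and bars with whiskers are means ± SD (n = 4). In both panels the groups do not overlap, with p4 controls highest and p4 mutants lowest.

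Without normalization between arrays, the members' loss at p4 was seen against the lower total. The background-subtracted signal of a miRNA, summed over its probes by the scanner software, was in p4 mutants 15.1% of that in controls for miR-27b, 23.9% for miR-23b and 29.3% for miR-24, but also 41.0% for miR-27a and 51.1% for miR-23a (ratios of geometric means). Mutant and control arrays did not overlap for any of the 5 guides (exact two-sided permutation p = 0.0286, adjusted p = 0.044 over 20 tests), and on this scale 48.5% of the 167 miRNAs detected on all arrays were lower without overlap. The value for miR-23a was close to that of the total signal, 51.3%.

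Taken as a share of the total, miR-27b ranged from 0.587 to 0.658% in p4 controls and from 0.156 to 0.207% in p4 mutants, so that mutants had 29.4% of the control share. The shares of miR-23b and miR-24 in mutants were 46.6% and 57.1% of those in controls. miR-27a was at 79.9%, also without overlap between genotypes (exact permutation test, adjusted p = 0.0476 over 20 tests). Of the 167 miRNAs, 25.7% had shares that were lower without overlap. miR-23a was at 99.6% (adjusted p = 0.943), with shares of 1.24 to 1.36% in controls and 1.07 to 1.54% in mutants. On this scale the shares of all 5 guides rose with age in controls, 1.95-fold for miR-27b, 1.67-fold for miR-23b, 1.61-fold for miR-24, 1.41-fold for miR-23a and 1.33-fold for miR-27a (exact permutation test, adjusted p = 0.0476 for each), where 21% of the 167 miRNAs had shares that were higher without overlap. In mutants the share of miR-24 rose 1.19-fold (exact permutation test, adjusted p = 0.0476), where 22.2% of the 167 were higher without overlap. The mutant ratio of p4 to E17 shares was 1.33 for miR-23a (adjusted p = 0.0762), 1.22 for miR-27a (adjusted p = 0.107), 0.955 for miR-23b (adjusted p = 0.602) and 0.895 for miR-27b (adjusted p = 0.168), all by the exact permutation test.

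**Figure D4:**
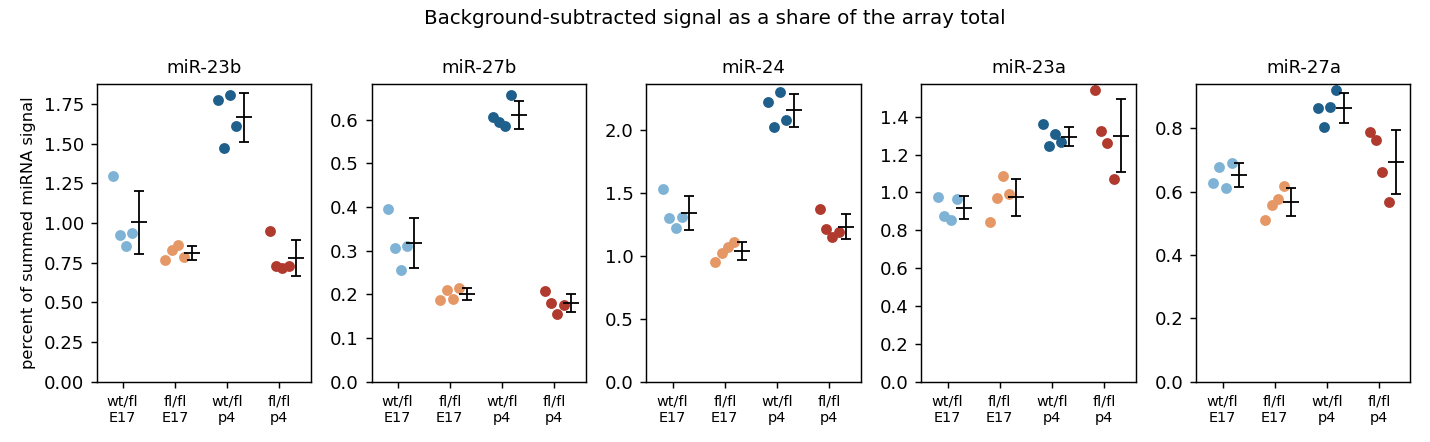
Background-subtracted signal of the 5 guide strands as a percentage of the summed miRNA signal of each array, by genotype and age. Points are arrays, bars with whiskers are means ± SD (n = 4), and each axis starts at 0. For miR-27b the p4 mutants lie between 0.156 and 0.207% and the p4 controls between 0.587 and 0.658%, while for miR-23a the p4 groups overlap.

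Across the 16 arrays the patterns of miR-23b, miR-27b and miR-24 were alike, with Pearson correlations of 0.94 (miR-23b with miR-27b), 0.95 (miR-23b with miR-24) and 0.95 (miR-27b with miR-24). miR-23a and miR-27a correlated at 0.72 with each other. Across the clusters the values were 0.24 for miR-23b with miR-23a and 0.66 for miR-27b with miR-27a, and miR-24 correlated at 0.29 with miR-23a and 0.78 with miR-27a. These values describe arrays of 4 groups and carry no test.

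Among miRNAs outside the clusters, the 3 with the pattern most like miR-27b were miR-34a (r = 0.98), miR-338-5p (0.97) and miR-30a (0.95). For miR-23b they were miR-107 (0.94), miR-30a (0.93) and miR-34a (0.92), and for miR-24 miR-107 (0.93), miR-34a (0.91) and miR-676 (0.89). miR-23a was most like miR-26a (0.90), followed by miR-125b-5p (0.70) and miR-539 (0.67). For miR-27a they were let-7g (0.81), let-7d (0.80) and miR-30c (0.76). At p4 the log2 difference between mutants and controls was -2.26 for miR-34a and -1.15 for miR-30a, next to -1.45 for miR-27b, and 0.12 for miR-26a, next to 0.12 for miR-23a.

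Some markers of other cell types differed between the genotypes and others did not. Of expressed miRNAs, 10.3% were called higher and 10.7% lower in p4 mutants, and 3.56% and 2.49% in E17 mutants. Shares are of a total that in p4 mutants was 51.3% of that in p4 controls. Of 6 fibroblast and smooth muscle miRNAs, 5 were expressed and miR-145 was never detected. At p4, 4 of them were called higher in mutants and miR-143 was not (0.08 on the log2 scale). The summed share of the list was at least 9.42% of the signal in p4 mutants and 4.21 to 4.89% in p4 controls. At E17 also 4 were called higher, with shares of 8.83 to 9.81% in mutants and 4.53 to 7.58% in controls. With the brightest probes alone, only miR-199a-5p met the call rule at E17 (0.69, limma adjusted p = 0.0402). Those of miR-199a-3p, miR-214 and miR-199b* had limma adjusted p of 0.176, 0.142 and 0.0932. The 2 endothelial miRNAs, both arms of miR-126, made up 1.55 to 1.81% in p4 mutants and 0.908 to 1.55% in p4 controls, and 1 was called higher. Of 4 leukocyte miRNAs 2 were expressed, miR-142-5p and miR-150 were never detected, and the share was 0.412 to 0.713% in p4 mutants and 0.166 to 0.215% in p4 controls, with 1 called higher. The part of these cell types in the values of the clusters was not tested.

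The 3 erythroid miRNAs made up 0.542 to 1.95% of the signal in p4 mutants and 0.167 to 1.13% in p4 controls. At E17 they made up 5.38 to 12.2% in mutants and 1.74 to 5.44% in controls. A different one was called higher at each age. These were miR-451 at p4 (1.35, limma adjusted p = 0.0306) and miR-486 at E17 (0.52, limma adjusted p = 0.0296). The 3 skeletal muscle miRNAs, at 0.182 to 1.07% in p4 mutants and 0.141 to 0.263% in p4 controls, had no call, and of 2 neuronal miRNAs, at 0.0262 to 0.0455% and 0.0461 to 0.0583%, miR-9 was called lower in p4 mutants (-0.68 on the log2 scale) and miR-124 had 0.31 (limma adjusted p = 0.00142), under the limit. Of the myelinating glia markers, miR-338-3p made up 0.197 to 0.303% in p4 mutants and 2.11 to 3.08% in p4 controls, and miR-219, a marker of oligodendrocytes, was never detected. The study's own list of miRNAs that rise with myelination and fall without Dicer holds miR-23b, miR-27b and miR-24 too. Of the 11 other guide strands on it, all were called higher with age in controls and 10 lower in p4 mutants. But that list was chosen on these samples, so these calls are not independent evidence of its direction. Apart from the arrays, the study reported by real time PCR that miR-27b was reduced in p4 mutants and rose with myelination. Those PCR values were not examined here.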

How the data were processed

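Total RNA of mouse sciatic nerves (4 animals per group) was labelled with Cy3 by the authors and hybridised to Agilent miRNA arrays, with equal RNA input. The deposited scanner files hold intensity values per spot on a linear scale from Agilent Feature Extraction 10.5.1.1, not normalized. A deposited table of 1902 probes holds the authors' quantile-normalized intensity values with present flags, and served as an alternative. Groups came from the sample titles.

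As in the study's methods, median spot signals were log2 transformed and quantile normalized over 13000 non-control spots. Outlier spots were dropped and the spots of a probe averaged (10 per member probe). No spot was saturated. Probes of miRNAs detected on at least 0.5 of the arrays of a group were kept, which left 681 probes of 281 miRNAs. limma 3.58.1 (R 4.3.3) fitted the 4 group means over 16 arrays, with Benjamini-Hochberg adjustment over 681 probes. Calls needed a log2 difference of 0.5 or more in size with an adjusted p no higher than 0.05, and a miRNA was called where 1 or more of its probes were and none in the opposite direction. Paralog ratios and summed signals were compared by exact two-sided permutation of arrays (SciPy 1.17.1, Python 3.11.15), whose smallest p is 0.0286. In a test on simulated data for the p4 comparison, 97.5% of 200 probes changed by 1 on the log2 scale were called among 681. Smaller changes, such as most of those of the members, were not simulated, so their recovery is not known. The number of arrays limits the precision.

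All 7 members and their probes are named, the brightest probe standing for a miRNA, with the other arms of their hairpins, the 3 miRNAs most correlated with each guide, and marker lists by count and summed share. Members and lists were chosen with earlier results of these data known. Alternatives covered the normalization, background, filter, probe choice, limit, test, replicate block and each array left out. Same-numbered mutants and controls deviated together with correlations from -0.52 to 0.09 at E17 and from -0.28 to 0.46 at p4, and no label says that a number marks a litter, so numbers were not taken to mark the littermate pairs that the methods describe.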

Additional observations from a re-analysis of the deposited data

Results flagged for a closer look

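Of 29 sets of 4 arrays (the named miRNAs and paralog ratios by group) examined for a single distant value, 2 held one, and chance alone gives about 1 in 20. In p4 controls the miR-23a log2 signal of replicate 3, 9.75, lay below the other arrays at 10.07 to 10.10, a gap of 0.909 of the group's range. In E17 controls the log2 ratio of miR-27b to miR-27a of replicate 1 was 0.28 relative to the group mean, above -0.06 to -0.12 in the others, a gap of 0.838 of the range.

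The mutant effect differed between p4 and E17 in the interaction test for both probes of miR-27b (-0.94 and -0.59 on the log2 scale) and both probes of miR-23b (-0.65 and -0.68), limma adjusted p at most 0.0400. The dimmer probe of miR-27b, with -0.59, was not well above background on 3 E17 mutant arrays. Age and slide cannot be told apart in this difference.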

How the results depend on the processing

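The p4 loss of miR-23b, miR-27b and miR-24 kept its direction and side of the threshold in every fit without 1 array (3 members called in each). miR-24-1* entered through the p4 controls alone and is left out of the counts of guides. Without normalization between arrays, all 5 guides were called lower at p4 (31.7% of expressed miRNAs) and 0 at E17 (1.78%). All 5 were called higher with age in controls (57.3%) and lower for the difference between the effects (29.9%). With age in mutants 4 were called higher (20.3%), all but miR-27b. There miR-23a was -0.93 at p4 and -0.87 for the difference of effects, and miR-23b was 0.54 with age in mutants, each against the sign under quantile normalization. That scaling moved the median of all expressed miRNAs from 0.06 to -0.19 at p4 and from -0.02 to 0.57 with age in controls, and scaling to the 75th percentile moved it to 0.70 and -0.59. With the 75th percentile, 0 guides were called at E17 and all 5 higher with age in controls (10.7% of expressed miRNAs). With age in mutants 1 was called higher (7.12%), and at p4 3 lower (7.83%). On that scale 70.1% of expressed miRNAs were called lower with age in controls and 72.2% higher at p4.

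Shares of all expressed miRNAs under the settings of this paragraph are not given here, so its calls are not set against other miRNAs. At p4 only miR-27b was called with a limit of 1. Without a limit miR-27a was called too, through its dimmer probe (limma adjusted p = 0.0037). So was miR-24-1*, which entered through the p4 controls alone. The single E17 call, of miR-27b, was lost with normexp on median signals (chosen after seeing the data), with a limit of 1 and with the methods' t-test after Benjamini-Hochberg. Without a limit miR-24 was called at E17 as well. With age in controls only miR-27b was called with the brightest probe alone, and 0 members with a limit of 1. Processed signals gave 5 calls and no limit gave 6, miR-24-1* among them in both. Without a limit miR-23a and miR-27a were called with age in mutants, through their dimmer probes. For the difference of effects miR-27b alone was called without the filter, and 0 members with a limit of 1. Leaving out 1 array gave 0 to 1 at E17, 2 to 4 with age in controls, 0 in mutants and 1 to 2 for the difference (1 without E17 control replicate 2 or 3 or p4 control replicate 1).

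Paralog ratios kept their sign under all alternatives run. The ratio of miR-23b to miR-23a lost its age call in controls without normalization and with the 75th percentile (0.24, adjusted p = 0.0571), with the mean of probes (0.26) and with background-subtracted signal (0.25), and its E17 call with the authors' values (-0.31) and with all spots (-0.33). The ratio of miR-27b to miR-27a lost its age call in mutants with the authors' values (-0.42). With the dimmer probes (chosen after seeing the data) values were -0.76 at p4, -0.29 at E17, 0.22 with age in controls and -0.25 in mutants for miR-23, and -0.56, -0.12, 0.24 and -0.21 for miR-27. With the replicate block, exact sign-flip permutation over 4 pairs gave -1.05 and -0.33 for miR-23 and -1.24 and -0.36 for miR-27 at p4 and E17, with p = 0.125, the smallest possible. With 1 array left out (smallest p 0.0571) the miR-23 ratio was -1.12 to -1.01 at p4, -0.39 to -0.28 at E17, 0.23 to 0.34 with age in controls and -0.50 to -0.39 in mutants, and the miR-27 ratio -1.30 to -1.19, -0.41 to -0.27, 0.51 to 0.65 and -0.37 to -0.27. The cause of these changes was not tested. The block changed no member call of the genotype comparisons and cannot be fitted for age. Normexp on mean signals was not run, since the scanner tables used here carry median and not mean spot signals. Signal over background limits miR-24-1*, miR-24-2* and the dimmer probe of miR-27b.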
